A study of Homo sapiens with 10 samples.

Results

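Cells that lose water to a concentrated medium bring their volume back by gathering organic osmolytes, small neutral molecules such as sorbitol, myo-inositol, taurine and betaine. NFAT5, also called TonEBP, is the transcription factor that raises the genes for making and importing these molecules when the surrounding fluid becomes hypertonic. Sorbitol is made from glucose by aldose reductase (AKR1B1) and turned into fructose by sorbitol dehydrogenase (SORD), a pair of steps known as the polyol pathway, which is widely studied in diabetic tissues. The retinal pigment epithelium (RPE), which lies between the photoreceptors and the choroid, moves taurine and water between the blood and the retina.

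The 10 genes described here are NFAT5, the polyol enzymes AKR1B1 and SORD, the osmolyte transporters SLC5A3, SLC6A6 and SLC6A12, the volume-regulated channel subunit LRRC8A, and SGK1, S100A4 and HSPA4L, which respond to hypertonic medium in other cells. They were taken by symbol from the 22626 rows of a table of read counts, where each had 1 row. ARPE-19, an established human RPE cell line, had been cultured for 48 h in a control medium that held D-glucose at 5.5 mM with mannitol at 32 mM (control group, n = 5) or in a medium with 37.5 mM D-glucose (HG group, n = 5). Mannitol is a sugar alcohol that adds dissolved molecules without feeding the cell, so both media held raised amounts of solute, and each value below compares glucose with mannitol at a matched amount. A medium without added solute was not analysed here, and nothing in the labels says whether the libraries of a group came from separate cultures, so p-values measure the spread between these libraries.

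The libraries held between 32448991 and 45864176 counts, and 14936 rows passed the filter on low counts and were tested. The first principal component (17.0% of the variance) separated the groups, and on the second (14.9%) HG_1 and control replicate 2 stood away from the rest. GC-rich genes had more reads in both, with log2 levels rising by 0.188 and 0.17 per 10 points of GC content, while the slope was from -0.0916 to -0.00519 elsewhere. NFAT5, SLC5A3 and HSPA4L, whose transcripts are poor in GC, lay low in both libraries, and AKR1B1 lay high. LRRC8A, whose transcript is rich in GC, hardly moved, so the genes did not all follow this trend. Values are given with and without both libraries. The RPE markers MITF, OTX2, RLBP1, PMEL and TYRP1 exceeded 1 CPM (the count scaled to a common library size) in all libraries, whereas RPE65 had no read in 9 of 10 libraries and TTR none in any. TYR had 0 to 4 counts in the HG libraries and 4 to 34 in the control libraries. SERPINF1 had means of 0.759 CPM in the HG group and 0.825 CPM in the control group. BEST1, another RPE marker, varied from 24 to 18223 counts, with 8707 in control replicate 1 and 18223 in control replicate 4 and at most 300 elsewhere. The blood cell marker PTPRC and the endothelial marker PECAM1 had between 0 and 4 counts, and CDH5, of endothelium, and CRX, of photoreceptors, had 0 in all libraries. CD68, a lysosomal protein that also marks macrophages, had a mean of 114 CPM in the HG group and 70.3 in the control group, and the keratin KRT8 and the collagen COL1A1 had 1211 against 1864 and 18.1 against 45.3 CPM. The keratin KRT18 had 659 against 1060 CPM, TJP1, of tight junctions, 30.8 against 32.2, and CDH1, of epithelium, 0 to 8 counts. Among mesenchymal genes CDH2 had 380 against 467 CPM, and VIM, in the other direction, 6107 against 5653. The part of these marker differences in the results below was not tested.

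NFAT5 acts by binding a short DNA motif, the tonicity-responsive enhancer (TonE), whose core is TGGAAA. RefSeq promoter windows on GRCh38.p14 were listed for 6 of the 10 genes, in 12 windows. They are shown because they differ in what they hold of this motif, read on both strands. The bases below precede a RefSeq transcription start and lie outside every annotated exon, and capitals mark the core or its reverse complement.
AKR1B1, chr7:134459285-134459489, minus strand: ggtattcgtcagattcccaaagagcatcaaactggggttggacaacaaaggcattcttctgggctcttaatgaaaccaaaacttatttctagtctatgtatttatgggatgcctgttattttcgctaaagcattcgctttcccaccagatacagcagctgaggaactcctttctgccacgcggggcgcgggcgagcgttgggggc
SLC5A3, chr21:34073328-34073522, plus strand: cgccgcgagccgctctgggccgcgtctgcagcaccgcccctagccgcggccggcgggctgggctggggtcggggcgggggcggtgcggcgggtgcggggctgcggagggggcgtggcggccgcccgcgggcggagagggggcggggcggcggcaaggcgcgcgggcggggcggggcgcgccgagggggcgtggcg
HSPA4L, chr4:127783273-127783522, plus strand: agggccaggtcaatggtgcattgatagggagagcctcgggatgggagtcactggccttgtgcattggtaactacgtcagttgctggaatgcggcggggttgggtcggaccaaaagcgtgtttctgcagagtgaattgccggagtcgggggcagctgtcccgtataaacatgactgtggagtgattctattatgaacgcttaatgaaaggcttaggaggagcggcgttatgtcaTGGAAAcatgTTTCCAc
The HSPA4L stretch carried the full TonE consensus 2 times, on opposite strands, with both matches sharing bases. It belongs to the last of the 3 HSPA4L windows, lies inside the annotated span of the gene and precedes an internal start, and the 250 bases before the first start (chr4:127781546-127781795) held neither consensus nor core. Among the 12 windows, 1 held the full consensus, against 4.92% of 35116 windows of all genes, and 2, both of HSPA4L, held the core, against 20.7% of all windows. These counts are over whole windows, exon bases included. Of the longest exon-free stretches before each HSPA4L start, only the printed one holds the core. The printed AKR1B1 and SLC5A3 stretches held neither, which says only that these letters are not in these bases, and enhancers can lie outside such short windows. The SLC5A3 stretch, with a GC content of 88.2%, is also the window listed for MRPS6, the gene around it. NFAT5, SORD, SLC6A6 and SLC6A12 were not listed.

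Of the 10 genes, 9 passed the filter on low counts, and 7 differed between the groups with an adjusted p under 0.05 (edgeR quasi-likelihood test, Benjamini-Hochberg adjustment over all rows tested). AKR1B1, SLC6A6, LRRC8A, SGK1 and S100A4 were lower in the HG group, and SORD and HSPA4L were higher. Over all rows tested, 7.8% were called lower and 7.62% higher. The HG and control libraries did not overlap in 5 genes that were lower and in 1 that was higher, SORD, against 6.91% and 6.74% of all rows tested. In RNA of whole cultures, a lower level in every cell and loss of the transcript from some cells cannot be told apart. The median log2 fold change of the 9 genes was -0.37, against 0.00132 over all rows. Levels below are in CPM after scaling by effective library size, given for HG_1 to HG_5 in the order of the deposited columns and for control replicates 1 to 5.

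**Figure D1:**
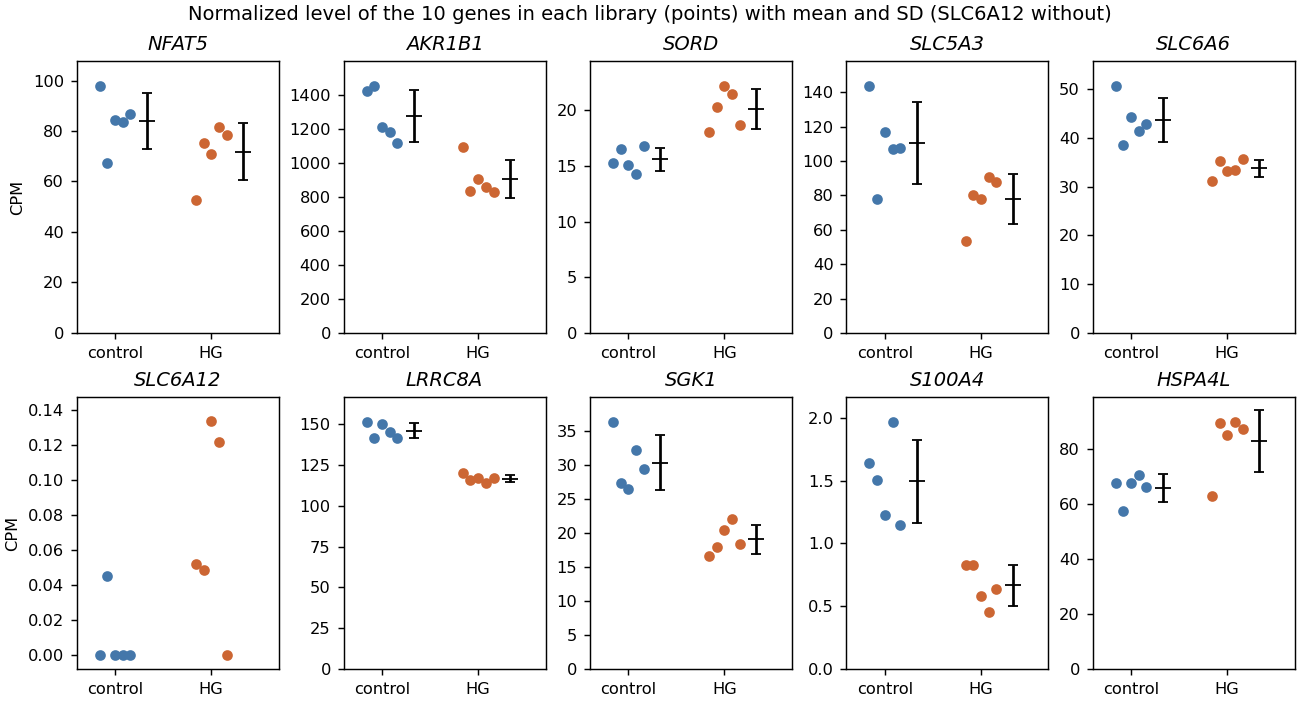
Each point is the CPM of a library, with control libraries (replicates 1 to 5 from left to right) in blue and HG libraries (HG_1 to HG_5) in orange; bars show the mean and SD of 5 libraries, left out for SLC6A12, and axes differ between panels. AKR1B1, SLC6A6, LRRC8A, SGK1 and S100A4 lay lower in every HG library than in any control library, and SORD lay higher.

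The transcription factor gene NFAT5 (ENSG00000102908, chromosome 16, 69565094 to 69704666, plus strand) had 52.8, 75.2, 70.9, 81.6 and 78.5 CPM in the HG libraries. In the control libraries it had 97.9, 67.2, 84.3, 83.6 and 86.9 CPM. The lowest library of each group was HG_1 or control replicate 2, and the groups overlapped. The means were 71.8 ± 11.3 and 84.0 ± 10.997 CPM (SD, n = 5 each), a log2 fold change of -0.23 with a standard error of 0.124, and the difference did not pass the test (adjusted p = 0.265, edgeR quasi-likelihood test). The ratio of HG to control was 0.855, with a 95% confidence interval from 0.707 to 1.03. Part of the transcript (11.2% of its 100-base windows) is shared with other genes, mostly the overlapping noncoding AC012321.1.

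In the polyol pathway the first enzyme was lower and the next enzyme higher in the HG group. AKR1B1 (ENSG00000085662, chromosome 7, 134442350 to 134459284, minus strand), which reduces glucose to sorbitol, had 1094, 835, 905, 858 and 827 CPM in the HG libraries. The control libraries had 1424, 1453.0, 1209.7, 1183 and 1115 CPM. HG_1 was the highest HG library and still below the lowest control library. The mean was 904 ± 110 CPM against 1277 ± 152 CPM, a log2 fold change of -0.50 with a standard error of 0.0975 and a ratio of 0.708 (95% confidence interval 0.610 to 0.822; adjusted p = 0.00608, edgeR quasi-likelihood test).

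SORD (ENSG00000140263, chromosome 15, 45023104 to 45077185, plus strand), which oxidizes sorbitol to fructose, had 18.0, 20.3, 22.2, 21.5 and 18.7 CPM in the HG libraries. It had 15.3, 16.5, 15.1, 14.3 and 16.8 CPM in the control libraries. All HG libraries lay above all control libraries. The means were 20.1 ± 1.79 and 15.6 ± 1.05 CPM, a log2 fold change of 0.37 with a standard error of 0.0777 and a ratio of 1.29 (1.15 to 1.45; adjusted p = 0.00918, edgeR quasi-likelihood test). About 23.4% of the 100-base windows of the SORD transcript occur in other genes, mostly in the pseudogene SORD2P, so its count is uncertain where the counting split such reads. With limma on the deposited FPKM values SORD was not called, with adjusted p between 0.0627 and 0.104.

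Since both enzymes are read in the same library, their ratio does not depend on how libraries were scaled. AKR1B1 had 60.7, 41.1, 40.8, 39.9 and 44.3 times the CPM of SORD in the HG libraries, and 93.3, 87.9, 79.98, 82.8 and 66.4 times in the control libraries. The ratio was lower in each HG library than in each control library, by 0.86 on the log2 scale. This separation follows from that of both genes and is a description, not a further test. On the FPKM scale the log2 difference was -0.92.

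**Figure D2:**
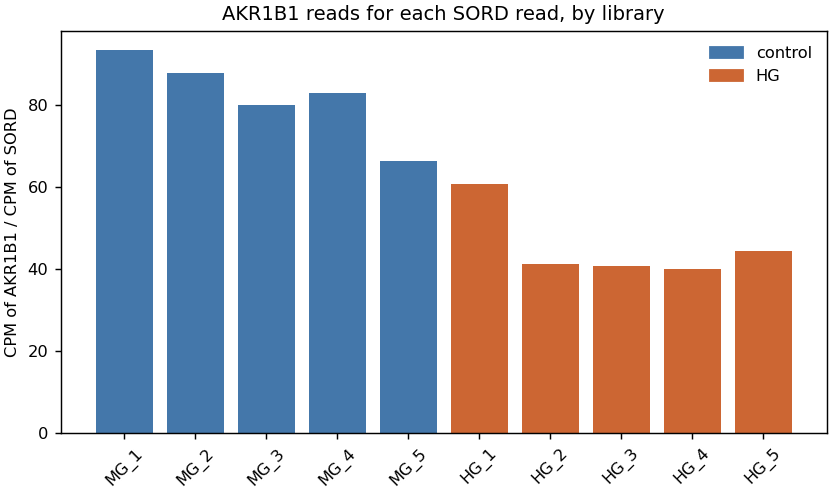
Bars give the CPM of AKR1B1 divided by the CPM of SORD in each library, control in blue and HG in orange. The HG libraries lie between 39.9 and 60.7 and the control libraries between 66.4 and 93.3.

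Among the osmolyte importers, the taurine transporter was lower in the HG group, the myo-inositol transporter was lower on average without passing the test, and the betaine transporter was barely detected. SLC6A6 (ENSG00000131389, chromosome 3, 14402576 to 14489349, plus strand) encodes TAUT, which brings taurine into the cell. It had 31.1, 35.3, 33.2, 33.5 and 35.6 CPM in the HG libraries and 50.7, 38.6, 44.4, 41.4 and 42.9 CPM in the control libraries. The groups did not overlap, with HG_5 at 35.6 and control replicate 2 at 38.6 CPM as the nearest libraries. The mean was 33.7 ± 1.82 CPM against 43.6 ± 4.50 CPM, a log2 fold change of -0.37 with a standard error of 0.0741 and a ratio of 0.774 (0.691 to 0.867; adjusted p = 0.00701, edgeR quasi-likelihood test). An exon of SLC6A6 overlaps GRIP2 on the other strand, and whether the counting used strand is not given in the sources used here.

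SLC5A3 (ENSG00000198743, chromosome 21, 34073570 to 34106262, plus strand) encodes the sodium/myo-inositol cotransporter SMIT1. Its levels were 53.6, 80.5, 78.0, 90.6 and 87.8 CPM in the HG libraries and 143.8, 77.6, 116.7, 106.8 and 107.8 CPM in the control libraries. Control replicate 2 fell among the HG libraries and HG_1 lay below all others. The means were 78.1 ± 14.6 and 110.6 ± 23.7 CPM, a log2 fold change of -0.50 with a standard error of 0.169 and a ratio of 0.706 (0.546 to 0.914). The change was as large as that of AKR1B1, its standard error was larger, and it was not called over all rows (adjusted p = 0.0709, edgeR quasi-likelihood test), although a two-sided exact permutation test of the gene alone gave p = 0.0397. SLC5A3 was called with DESeq2 (adjusted p = 0.0161) and with edgeR when control replicate 2 was left out (log2 fold change -0.60, adjusted p = 0.0222), while without other single libraries the adjusted p reached 0.164.

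The 2 exons of SLC5A3 lie within the locus of MRPS6, which encodes a mitochondrial ribosomal protein and is read from the same strand and promoter. MRPS6 had 56.3 ± 4.25 CPM in the HG group and 68.3 ± 5.05 CPM in the control group, a log2 fold change of -0.28 with an adjusted p of 0.0186 (edgeR quasi-likelihood test). The ratio of SLC5A3 to MRPS6 within a library was from 0.847 to 1.68 in the HG libraries and from 1.08 to 1.98 in the control libraries. These ranges overlapped, and the log2 difference of -0.22 did not pass a two-sided exact permutation test (p = 0.397). Of the 100-base windows of SLC5A3, 0.68% are shared with another transcript, mostly MRPS6.

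SLC6A12 (ENSG00000111181, chromosome 12, 190077 to 214570, minus strand), the betaine and GABA transporter BGT1, had 2, 2, 6, 4 and 0 counts in the HG libraries. It had 0, 2, 0, 0 and 0 counts in the control libraries. It therefore did not pass the filter. In all it had 14 counts in the HG group and 2 in the control group, and a count of 0 allows up to 3 counts, or 0.0674 to 0.0912 CPM in the 5 libraries without a read. A two-sided exact permutation test gave p = 0.0476, but the adjusted p was between 0.18 and 0.233 in the 3 fits across all genes that kept the row, and no fold change is given at this depth. This limit covers counting error only.

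LRRC8A, the obligatory subunit of the volume-regulated anion channel through which swollen cells release chloride and osmolytes such as taurine, had the smallest standard error of the 9 genes tested. The gene (ENSG00000136802, chromosome 9, 128882112 to 128918039, plus strand) had 119.9, 116.1, 117.1, 113.7 and 116.7 CPM in the HG libraries. It had 151.4, 141.6, 150.1, 145.0 and 141.7 CPM in the control libraries. The highest HG library was thus well below the lowest control library. The means were 116.7 ± 2.21 and 146.0 ± 4.62 CPM, a log2 fold change of -0.32 with a standard error of 0.0371 and a ratio of 0.800 (0.755 to 0.846; adjusted p = 0.000322, edgeR quasi-likelihood test). The partner subunits LRRC8B, LRRC8C, LRRC8D and LRRC8E, which set what the channel lets through, were not called. Their log2 fold changes were 0.12, -0.44, -0.01 and -0.06, with adjusted p of 0.624, 0.107, 0.944 and 0.664. LRRC8C, at 5.37 ± 0.952 and 7.29 ± 1.60 CPM, had a larger fold change than LRRC8A with a standard error of 0.168, and whether the subunits differ from each other was not tested.

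SGK1, a kinase that responds to glucocorticoids and cell volume and raises the activity of ion channels and transporters, was lower in the HG group. The gene (ENSG00000118515, chromosome 6, 134169246 to 134318112, minus strand) had 16.7, 17.9, 20.4, 22.0 and 18.3 CPM in the HG libraries. It had 36.3, 27.3, 26.5, 32.2 and 29.4 CPM in the control libraries, none of which overlapped the HG libraries. From 30.3 ± 4.00 to 19.1 ± 2.13 CPM, the log2 fold change was -0.67 with a standard error of 0.104 and a ratio of 0.629 (0.537 to 0.738; adjusted p = 0.00171, edgeR quasi-likelihood test).

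S100A4, a small calcium-binding protein of motile cells, had the largest log2 fold change of the 9 genes tested and the lowest level among them. The gene (ENSG00000196154, chromosome 1, 153543613 to 153550136, minus strand) had 32, 34, 26, 15 and 21 counts in the HG libraries and 54, 67, 51, 65 and 51 counts in the control libraries. Scaled to library size these were 0.831, 0.824, 0.579, 0.456 and 0.639 CPM against 1.64, 1.50, 1.23, 1.97 and 1.15 CPM. Every control library lay above every HG library. The means were 0.666 ± 0.162 and 1.50 ± 0.331 CPM, a log2 fold change of -1.16 with a standard error of 0.234 and a ratio of 0.448 (0.313 to 0.641; adjusted p = 0.00729, edgeR quasi-likelihood test). With limma on log2(FPKM + 1) the change was -0.70, a value that the pseudocount brings down for a gene at this level.

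HSPA4L, a chaperone of the HSP110 family that is also known as osmotic stress protein 94, was higher in the HG group. The gene (ENSG00000164070, chromosome 4, 127781821 to 127840733, plus strand) had 63.0, 89.6, 84.9, 89.8 and 87.2 CPM in the HG libraries. It had 67.7, 57.3, 67.5, 70.4 and 66.3 CPM in the control libraries. HG_1 lay among the control libraries and the other 4 HG libraries, all from 84.9 CPM up, lay above them. The TonE matches printed for this gene lie within its annotated span, before a later start. A pseudogene and an antisense transcript overlap its exons on the other strand. The means were 82.9 ± 11.3 and 65.9 ± 4.98 CPM, a log2 fold change of 0.33 with a standard error of 0.0977 and a ratio of 1.26 (1.08 to 1.46; adjusted p = 0.0425, edgeR quasi-likelihood test). This call is near the threshold: leaving out any single library other than HG_1 gave an adjusted p between 0.0616 and 0.0998, and leaving out HG_1 gave 0.00115.

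NFAT5, SLC5A3 and HSPA4L have transcripts with GC contents of 39.3%, 38.3% and 38.1%, against 53.4% for AKR1B1 and 57.6% for LRRC8A. In HG_1 and control replicate 2, NFAT5 lay 0.53 and 0.39 log2 units below the mean of the other 4 libraries of its group, SLC5A3 0.65 and 0.60 below, and HSPA4L 0.48 and 0.24 below. AKR1B1 lay 0.35 and 0.24 above, and 0.13 and 0.03 above after the correction described next, and S100A4 lay 0.41 above in HG_1 and 0.04 above in control replicate 2, against 0.10 above and 0.29 below after it. LRRC8A, despite its GC content, lay only 0.05 above in HG_1 and 0.05 below in control replicate 2. SLC6A6, at 51% GC, lay 0.14 and 0.21 below, SGK1 0.23 and 0.18 below, and SORD 0.20 below and 0.11 above. AKR1B1 and S100A4 were called without both libraries (log2 fold change -0.52 and -1.25) and with the correction (-0.57 and -1.28). When the trend of each library with GC content and transcript length was removed, NFAT5 had log2 CPM from 6.11 to 6.24 in the HG libraries and from 6.31 to 6.46 in the control libraries, without overlap. SLC5A3 then had 6.20 to 6.38 against 6.61 to 7.02, and HSPA4L 6.32 to 6.43 against 5.93 to 6.17, also without overlap. SORD, in contrast, came to overlap, with HG_5 at 4.18 and control replicate 2 at 4.19.

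With this correction all 9 genes were called (7 lower, 2 higher), where 16% of the 13538 rows with a GC content and length were called lower and 12.3% higher. The log2 fold change of NFAT5 was then -0.20 ± 0.0408 (SE), that of SLC5A3 -0.48 ± 0.073 and that of HSPA4L 0.34 ± 0.0483, with adjusted p of 0.00327, 0.000481 and 0.000268 from edgeR's quasi-likelihood test. Leaving out HG_1 and control replicate 2 gave like values of -0.20, -0.50 and 0.37, with adjusted p of 0.038, 0.00552 and 0.000174, and again called all 9 genes, while 13.8% of 14899 rows were called lower and 13.3% higher. The standard error of the NFAT5 difference was 0.124 without the correction and 0.0408 with it. Its size rested on which of the 2 libraries was kept, at -0.13 without HG_1 alone (adjusted p = 0.379) and -0.30 without control replicate 2 alone (adjusted p = 0.12), and was -0.12 with limma on log2(FPKM + 1) (adjusted p = 0.679).

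**Figure D3:**
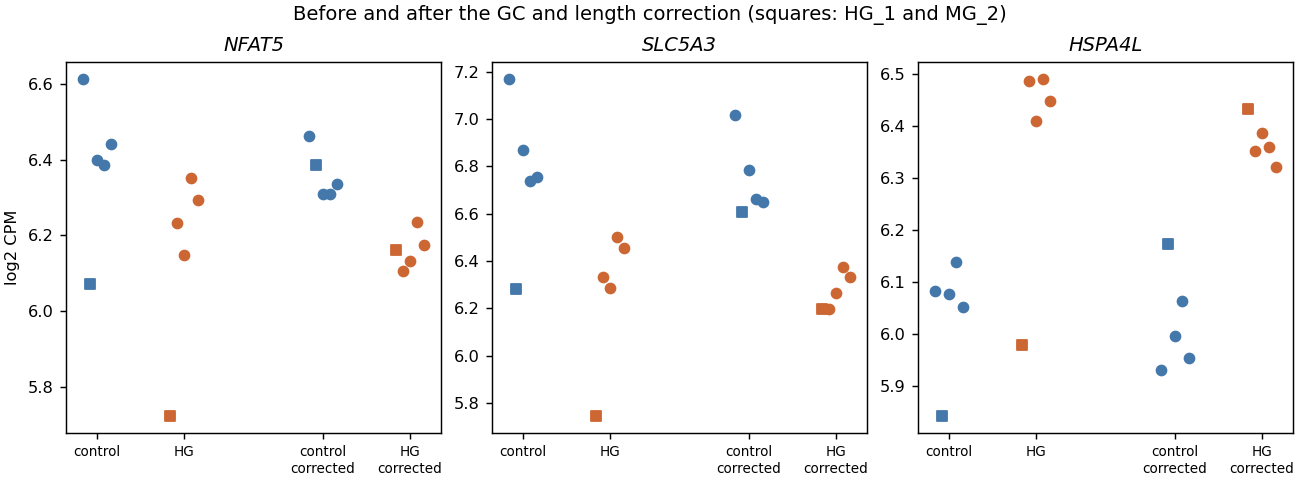
Points give the log2 CPM of NFAT5, SLC5A3 and HSPA4L in each library before (left) and after (right) removal of the trend with GC content and length, control in blue and HG in orange, with HG_1 and control replicate 2 as squares. Before the correction the squares lie below the other libraries of their group, and after it the groups do not overlap, as for NFAT5 at 6.11 to 6.24 against 6.31 to 6.46.

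**Figure D4:**
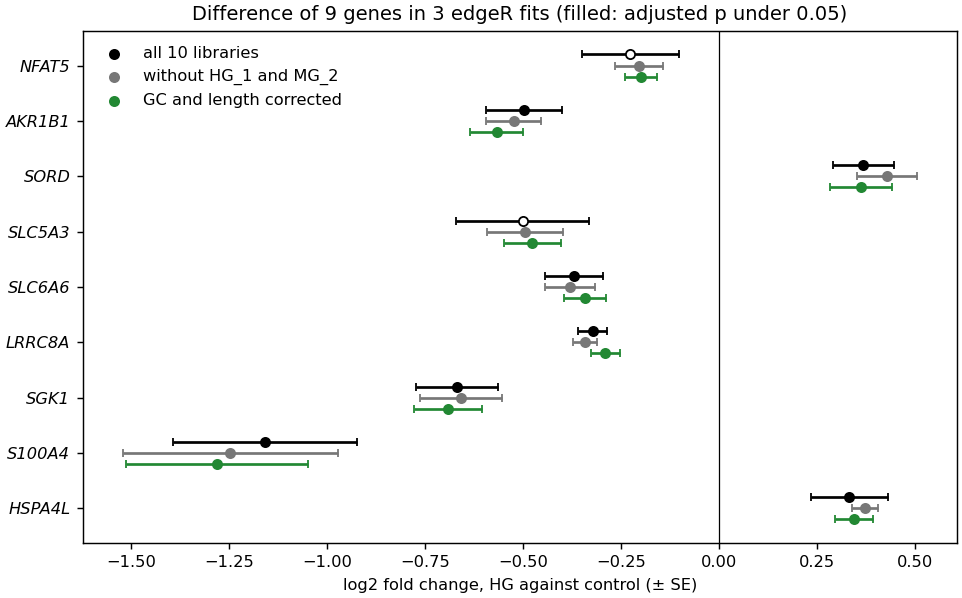
Points give the log2 fold change of HG against control for 9 genes in 3 edgeR fits, with bars of 1 standard error and filled points where the adjusted p was under 0.05. Directions are the same in all 3 fits, and NFAT5 and SLC5A3 are open only in the uncorrected fit to all 10 libraries.

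Levels of different genes can be set side by side only per length, for which the deposited FPKM values were used. In the control group AKR1B1 stood first at 858 ± 90.1 FPKM, followed by LRRC8A at 30.8 ± 0.997 and SGK1 at 11.5 ± 1.63. SLC5A3 (8.83), SLC6A6 (6.43), HSPA4L (6.02) and NFAT5 (5.51) came next, then SORD (3.15), S100A4 (2.37) and SLC6A12 (0.00232). The ranges of neighbours were apart only after AKR1B1, LRRC8A, NFAT5 and S100A4. From SGK1 through SLC5A3, SLC6A6 and HSPA4L to NFAT5, each range thus overlapped that of the neighbour, as did those of SORD and S100A4. In the HG group AKR1B1 (612 ± 60.2 FPKM) and LRRC8A (24.8 ± 0.514) kept their places, HSPA4L (7.28) and SGK1 (7.27) followed with overlapping ranges, and SLC5A3, NFAT5, SLC6A6 and SORD had 6.30, 5.05, 5.01 and 4.33 FPKM. S100A4 (1.07) and SLC6A12 (0.0199) remained last.

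As a description of likeness over the 10 libraries, among 13537 other genes of at least 1 CPM on average, the log2 CPM of AKR1B1 was most like those of SERPINH1 (Pearson r = 0.992), CDH24 (0.985) and SRRT (0.984). The pattern of NFAT5 was most like those of TRAM1 (0.990), AHNAK (0.989) and TEAD1 (0.989), none of which was called between the groups. NFAT5 and AKR1B1 themselves had r = 0.139. NFAT5 and SLC5A3 had r = 0.964, and 0.937 after the correction for GC content and length. These libraries share the group difference and the trend with GC content, so such values describe the libraries and were not tested.

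Around the 10 genes, 111 others of the same pathways were listed, of which 90 were tested, 8 (8.89%) were called higher and 14 (15.6%) lower, against 7.62% and 7.8% of all rows tested, and the median log2 fold change was -0.02. In the polyol and fructose list 1 of 9 other genes tested changed. HK1, a hexokinase that competes with AKR1B1 for glucose, rose from 258 ± 12.5 to 319 ± 11.1 CPM (log2 fold change 0.30, adjusted p = 0.00133). FN3K, which removes fructosamine adducts from proteins, had 18.6 ± 2.75 against 12.6 ± 3.62 CPM (0.57, adjusted p = 0.0577) and was not called.

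The taurine list had 1 gene higher and 1 lower among 4 tested, both thiol dioxygenases, where 7.62% of all rows were higher and 7.8% lower. ADO, which oxidizes cysteamine, rose from 59.1 ± 3.06 to 73.1 ± 5.44 CPM (log2 fold change 0.31, adjusted p = 0.00709). CDO1, which oxidizes cysteine on the way to taurine, fell from 15.3 ± 1.21 to 12.4 ± 1.21 CPM (-0.31, adjusted p = 0.0369), a call that was lost in 10 of 20 alternative fits. CSAD, the decarboxylase of the same route, was not called (0.03, adjusted p = 0.874), nor was SLC36A1, an amino acid carrier that also moves taurine (0.04, adjusted p = 0.833). Besides MRPS6, none of the 6 inositol genes tested was called. Their smallest adjusted p values were those of IMPA2, a phosphatase that frees myo-inositol (log2 fold change -0.32, adjusted p = 0.141), and SLC2A13, a proton-coupled inositol carrier (0.46, adjusted p = 0.152).

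Of 7 betaine and glycerophosphocholine genes tested, 1 was called higher, 2 lower and 4 were not called, where 7.62% and 7.8% of all rows were higher and lower. CHDH, which oxidizes choline toward betaine, fell from 19.4 ± 1.44 to 15.1 ± 1.04 CPM (log2 fold change -0.35, adjusted p = 0.0083). PNPLA6, a phospholipase that yields glycerophosphocholine, fell from 121.8 ± 9.07 to 96.9 ± 10.4 CPM (-0.33, adjusted p = 0.0159). GPCPD1, which breaks glycerophosphocholine down, rose from 15.2 ± 1.44 to 19.1 ± 2.21 CPM (0.32, adjusted p = 0.0458), a call lost in 14 of 20 alternatives. ALDH7A1, the next enzyme after CHDH, was not called (0.11, adjusted p = 0.0947).

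Of 16 other cell volume channels and transporters, 1 was called, where 7.62% of all rows tested were called higher and 7.8% lower. SLC12A4, the potassium-chloride cotransporter KCC1, fell from 121.3 ± 4.24 to 100.8 ± 4.35 CPM (log2 fold change -0.27, adjusted p = 0.00241). Among 9 other genes listed here as NFAT5 targets, a list that may be neither complete nor exact, VEGFA, the vascular growth factor, rose from 47.8 ± 2.07 to 87.1 ± 9.12 CPM (0.87, adjusted p = 6.97e-05), and CCL2, the monocyte chemokine, fell from 129.5 ± 15.5 to 60.5 ± 13.3 CPM (-1.10, adjusted p = 0.000731). ACTA2, smooth muscle actin, fell from 62.8 ± 4.77 to 52.9 ± 4.66 CPM (-0.25, adjusted p = 0.0443), a call lost in 9 of 20 alternatives. HSPA1A and HSPA1B, near-identical HSP70 genes whose counts are uncertain where reads match both, had log2 fold changes of -0.07 and 0.07 and were not called (adjusted p = 0.504 and 0.535). GDPD5 was not called either (-0.20, adjusted p = 0.124).

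In the list on the control of NFAT5 and the NFAT family, 4 of 16 other genes were called, all lower, where 7.8% of all rows tested were called lower. DHX9, a helicase that binds NFAT5, was lower by a log2 fold change of -0.26 (adjusted p = 0.0181), AKAP13, a guanine nucleotide exchange factor, -0.25 (0.0247), PARP1 -0.19 (0.0304) and the nucleoporin NUP88 -0.21 (0.0348). Each of these calls was lost in between 4 and 9 of 20 alternatives. The list on SGK kinases and the glucocorticoid response had 2 genes higher and 1 lower of 11 tested. Of all rows tested, 7.62% were higher and 7.8% lower. SCNN1A, the alpha subunit of the epithelial sodium channel, fell from 3.51 ± 0.311 to 1.30 ± 0.324 CPM (-1.43, adjusted p = 0.000617), and by 0.51 on the log2(FPKM + 1) scale with limma (adjusted p = 0.00017). TSC22D3 (GILZ), a gene that glucocorticoids raise, was higher at 28.0 ± 4.41 against 17.8 ± 1.25 CPM (0.66, adjusted p = 0.00207), and NDRG1, a substrate of SGK1, at 37.4 ± 3.28 against 29.6 ± 1.88 CPM (0.34, adjusted p = 0.00988). Other genes listed for the glucocorticoid response were not called: KLF9 (0.22, adjusted p = 0.118), FKBP5 (-0.08, 0.667) and PER1 (0.000766, 0.999).

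HSPA9 and HSPA8, the mitochondrial and constitutive HSP70 proteins, were the 2 called of 9 other chaperone genes, with log2 fold changes of 0.30 (adjusted p = 0.00146) and 0.14 (0.0195). For this list and the S100 list below, the shares of all rows tested were 7.62% called higher and 7.8% lower. HSPA8 lost its call in 3 of 20 alternatives, one of them the correction for GC content and length (0.09, adjusted p = 0.0896). Of 7 other S100 genes, S100A10 fell from 136.1 ± 13.3 to 93.3 ± 11.9 CPM (-0.54, adjusted p = 0.00276) and S100A3 from 5.28 ± 0.795 to 2.90 ± 0.709 CPM (-0.87, adjusted p = 0.00878). S100A3 lies beside S100A4 on the same strand and their annotated spans overlap, though no exon does. The adjusted p values of the listed genes come from the same edgeR quasi-likelihood test over all rows.

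**Figure D5:**
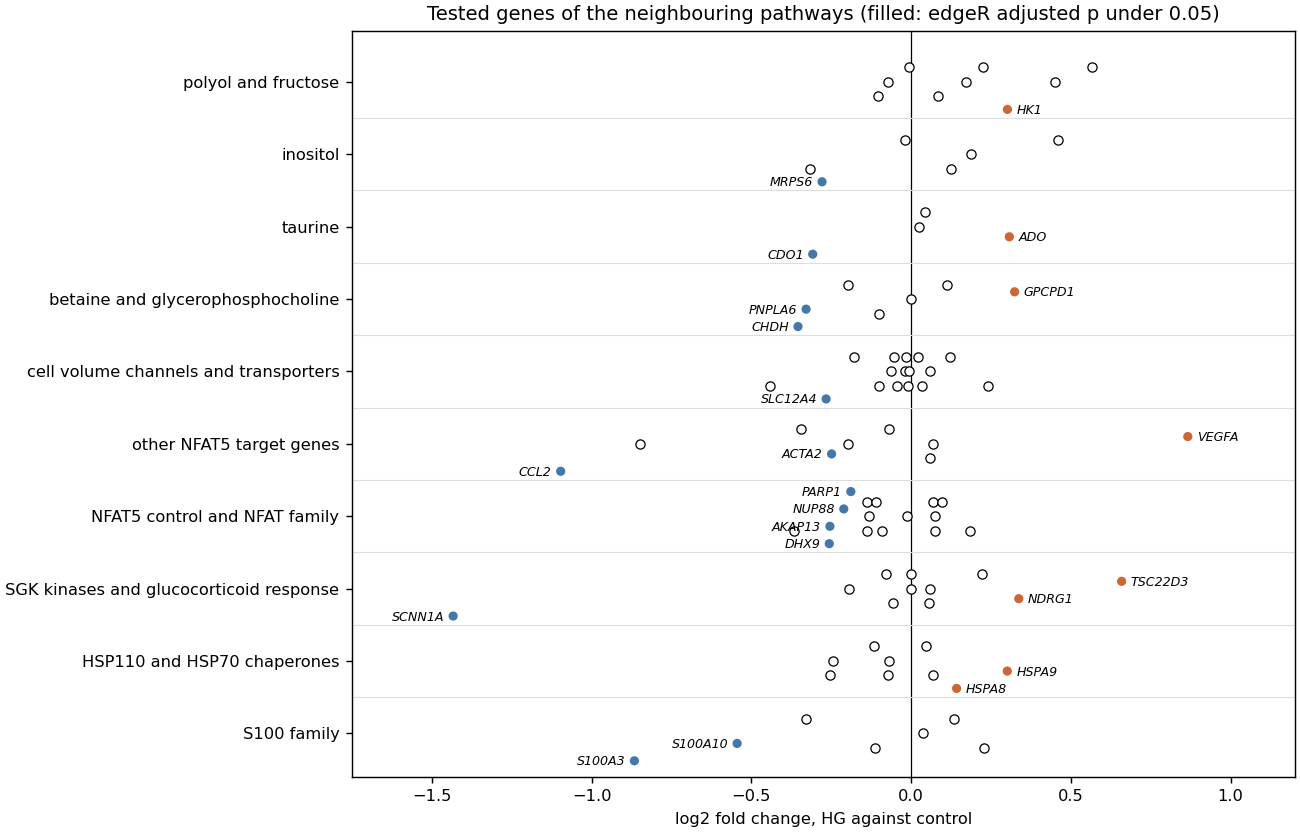
Each point is a tested gene of a pathway list other than the 10 genes, at its log2 fold change of HG against control, filled and named where the edgeR adjusted p was under 0.05; height within a row has no meaning, and genes on 2 lists appear on both. Of the 90 genes, 8 are filled to the right of 0 and 14 to the left, from SCNN1A at -1.43 to VEGFA at 0.87.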

How the data were processed

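Total RNA from 10 ARPE-19 libraries, 5 grown for 48 h in control and 5 in HG medium, was sequenced. Per the labels, RNA was extracted with TRIzol, and the submitters' processing notes name fastp 0.20.1, HISAT2 2.2.1 and GRCh38. The counting program, annotation and strand setting are not given in the sources used here. The authors deposited raw read counts per gene, without normalization, and FPKM values, which they had scaled to transcript length and library size. Loci named MSTRG held 1.34% to 1.65% of the counts of a library. HG columns could be tied to their group only, and control columns to their replicate.

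Counts were compared in R 4.3.3 with edgeR 4.0.16 (default filter, TMM, quasi-likelihood test, Benjamini-Hochberg adjustment over 14936 rows). CPM uses TMM-scaled library sizes, and log2 CPM a prior count of 2. Single values were tested by a two-sided exact permutation test over the 252 arrangements of 10 libraries. Alternatives were DESeq2 1.42.0, other size factors and filters, limma 3.58.1 on log2 FPKM with pseudocounts of 1 or 0.1, libraries left out, and a lowess correction (span 0.3) for GC content and length of 13538 rows. The fits were tested on simulated data. Libraries within a group differed beyond sampling noise in all 20 pairs (chi-square per gene from 13.0 to 78.0), so none was taken for a repeat of another, although this cannot show that the cultures were separate. The 10 genes and the pathway lists were chosen with earlier results of these data known. Named besides the 10 genes were up to 4 genes per list with the smallest adjusted p, MRPS6, the LRRC8 genes, HSPA1A and HSPA1B. For AKR1B1 and NFAT5 the 3 genes with the most similar pattern were named too. Also named were cell type markers, listed genes that the filter removed and genes flagged for an outlying library. FKBP5, PER1 and SLC38A2 were chosen after their values were seen. Positions come from GENCODE release 29 on GRCh38.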

Additional observations from a re-analysis of the deposited data

Results flagged for a closer look

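In 118 groups of 5 libraries (10 genes, 46 pathway genes, 2 ratios and the total counts, in each group), 10 had a library at one end that stood far from the other 4 by Dixon's criterion, where chance gives about 1 in 20, or 5.9. HSPA4L was at 63.0 CPM in HG_1, against 84.9 to 89.8 in the other HG libraries. The ratio of AKR1B1 to SORD was 60.7 in HG_1, against 39.9 to 44.3. SLC6A12 had 0.0449 CPM (2 counts) in control replicate 2 and 0 in the other control libraries. S100A10 had 159.4 CPM in control replicate 2, against 127.4 to 133.3, and S100A3 had 6.71, against 4.91 to 4.94. AKR1A1, an aldehyde reductase, had 85.1 CPM in HG_1, against 65.0 to 68.9, and 75.2 in control replicate 2, against 57.3 to 61.9. S100A13 had 40.5 CPM in HG_1, against 27.5 to 31.0, and SLC36A1 had 17.5, against 22.7 to 24.2. NUP88 had 47.8 CPM in control replicate 3, against 51.3 to 52.2. HG_1 and control replicate 2, the libraries with a GC trend of their own, hold 9 of the 10 values, and the part of this trend in them was not tested.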

How the results depend on the processing

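AKR1B1, SLC6A6, LRRC8A, SGK1 and S100A4 were called lower in all 20 alternatives other than the replicate block given below. Neither the 9 genes tested nor the listed genes that were called changed direction in any. Among these alternatives, the fit without HG_1 and control replicate 2 leaves out libraries picked from these same data. The number of the 10 genes called was 7 and ranged from 5 (limma on FPKM) to 9 (correction for GC content and length, or without HG_1 and control replicate 2), and from 6 to 7 when each library was left out. Over all rows, 2303 were called, 4035 without HG_1 and control replicate 2, 3828 with the correction, 3069 with DESeq2, and 1648 to 2993 when each library was left out in turn. With library size alone in place of TMM, 1230 rows were higher and 1071 lower, against 1138 and 1165. SORD lost its call in 3 alternatives and HSPA4L in 14, while NFAT5 gained one in 2 and SLC5A3 in 4. The log2 difference of the SLC5A3 to MRPS6 ratio was between -0.36 and -0.05 when each library was left out. The labels give the groups no shared replicate numbers. With a replicate block taken from the numbers in the column names, added after seeing the data, 1071 rows and 4 of the 10 genes were called. SORD, SLC6A6 and HSPA4L were the genes that lost their call, with adjusted p of 0.0669, 0.0639 and 0.128. Libraries of the same number did not deviate together (r from -0.0656 to 0.0392), and 1 of 5 HG libraries (HG_3) correlated best with the control library of its own number. HG_1 correlated best with control replicate 2, the other library with a GC trend. Such correlations cannot show whether libraries of the same number were cultured together, so a pairing is not known. Depth limits SLC6A12, with at most 6 counts per library, and S100A4, with at most 67.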

Other observations

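Listed genes that the low-count filter removed had at most 16 counts in a library. They include the fructose transporter SLC2A5, the inositol carrier SLC5A11 and the inositol oxygenase MIOX, the GABA carrier SLC6A13, the betaine-using enzymes BHMT and BHMT2, the water channels AQP2 and AQP3, the urea transporter SLC14A2, and the NFAT5 targets TNF, LTB, HAS2 and LCN2. Also removed were AKR1B15, AKR1E2, GADL1, BAAT, ZBTB16, S100P and S100B. SLC38A2, an amino acid transporter that hypertonic medium raises in many cells and that was chosen here after its values were seen, was tested at 0.403 ± 0.174 CPM in the HG group and 0.733 ± 0.402 CPM in the control group, a log2 fold change of -0.85 with an adjusted p of 0.223 (edgeR quasi-likelihood test).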
